A study of Mus musculus with 18 samples.

Results

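The natriuretic peptide system of the heart was followed through 6 genes, taken by name from the deposited expression tables: the hormone genes Nppa and Nppb, the processing protease gene Corin, and the receptor genes Npr1, Npr2 and Npr3. All 6 were among the 23457 genes of the count table and the 23396 genes of the FPKM table (fragments scaled by gene length and library size, a level that can be set side by side between genes), and all 6 were among the 12281 genes with enough reads to enter the fit. Hearts came from 18 male C57BL/6 mice in 3 groups of 6, each animal 17 weeks old when tissue was taken. Every animal had received an adeno-associated virus vector (rAAV6) through the tail vein at 8 weeks of age, 9 weeks before tissue was taken. The rAAV6-blank vector held a promoter but gave no protein, and was the control. The other vectors gave FLAG-tagged PLCβ1a or FLAG-tagged PLCβ1b, splice variants of phospholipase Cβ1 that differ at their C-terminal end. The comparisons ask whether depressed contractility in PLCβ1b hearts, in which hypertrophy is absent, comes with a transcriptional response, with PLCβ1a as the variant that leaves contractility as it was. The labels name both ventricles as the tissue, while the methods name the left ventricle. RNA came from whole tissue, so that fewer cells of a type and less RNA per cell cannot be told apart in any value given here.

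Cardiac myocytes release atrial natriuretic peptide (ANP, from Nppa) and B-type natriuretic peptide (BNP, from Nppb) when the chamber wall is stretched, and in the adult the atria are the main source of ANP. The precursors are cut to active hormones by proteases, with corin, a membrane protease of myocytes, acting on pro-ANP. ANP and BNP bind the guanylyl cyclase receptor NPR1, which makes cyclic GMP and so promotes sodium excretion and vessel relaxation, NPR2 is the cyclase receptor for C-type natriuretic peptide, and NPR3 takes the peptides out of circulation. Ventricular Nppa and Nppb are widely used as readouts of wall stress and hypertrophy.

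Nppa and Nppb are neighbours on mouse chromosome 4 and are read in the same direction, and their promoters are shown because both hormone genes are set against each other heart by heart further on. In the deposited gene models (mm10) Nppb ran from 147985789 to 147987205 and Nppa from 148000746 to 148002067, both on the plus strand, each with 3 exons and with 13540 bases between them. The RefSeq promoter windows (GRCm38.p6, plus strand), from 250 bases before to 50 bases after the RefSeq start, were at chr4:148000472-148000771 for Nppa and at chr4:147985650-147985949 for Nppb. Capitals mark matches, on either strand, to words known to be bound by cardiac transcription factors or the basal machinery: the word TGATAA and the related word AGATAA for factors of the GATA family. The M-CAT word of TEAD factors is CATTCC when read on its own strand. The word searched for the factor NKX2-5 was AAGTG in full. The box of the basal machinery was searched as TATAAA only.
Nppa promoter: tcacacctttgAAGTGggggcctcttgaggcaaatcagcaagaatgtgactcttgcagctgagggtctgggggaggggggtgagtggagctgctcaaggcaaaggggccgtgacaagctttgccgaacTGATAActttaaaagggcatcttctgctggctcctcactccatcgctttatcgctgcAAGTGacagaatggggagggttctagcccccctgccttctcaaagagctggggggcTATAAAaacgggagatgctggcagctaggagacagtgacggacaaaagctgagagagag
Nppb promoter: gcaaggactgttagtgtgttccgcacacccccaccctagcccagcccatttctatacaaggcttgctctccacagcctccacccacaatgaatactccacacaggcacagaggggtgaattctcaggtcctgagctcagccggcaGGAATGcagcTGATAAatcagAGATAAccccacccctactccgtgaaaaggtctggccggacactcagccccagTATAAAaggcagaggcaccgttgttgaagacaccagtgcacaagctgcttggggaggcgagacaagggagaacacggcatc
The Nppa window held 1 GATA word, 2 AAGTG words and 1 TATA word. The Nppb window held 2 GATA words, 1 M-CAT word and 1 TATA word. RefSeq and the deposited models do not give the same starts. The deposited Nppb model starts at 147985789, ahead of all marked Nppb words, which by that model lie inside the gene. The marked Nppa words lie before the start in both. None of the marked words overlapped another. Over 32851 mouse promoters of the same length, 18.6% held a GATA word, 14.7% an M-CAT word, 46.4% an AAGTG word and 13.6% a TATA word. RefSeq windows were on hand for all 6 genes, and those of Corin, Npr1, Npr2 and Npr3 held none of these words. The Npr3 window (chr15:11907322-11907621, minus strand) did not reach the deposited Npr3 model, whose outer end is at 11905674. A match describes letters only, and binding was not measured.

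Libraries were strand-specific and depleted of ribosomal RNA, and held 13246339 to 24155465 counted fragments per heart. Genes of the nucleus took 3908354 to 7591558 of them, as the mitochondrial ribosomal RNA mt-Rnr2 alone took 53.5% to 57.5%. Ventricular markers were far above atrial ones, which were nevertheless present. Myl2, the ventricular regulatory light chain, had a mean FPKM of 5610 ± 281 for blank, 5540 ± 327 for PLCβ1a and 5570 ± 345 for PLCβ1b hearts (± SD over 6 hearts), while in blank hearts the atrial genes Myl7, Myl4 and Sln had 20.9 ± 3.16, 12.2 ± 1.30 and 5.0 ± 0.289, and Bmp10, an atrial growth factor gene, had at most 4 counts in any heart. Myl7 ran from 3.37 to 13.5 CPM (counts scaled to library size) over PLCβ1a hearts. Plcb1, the gene that both PLC vectors carry, checked the labels of blank against PLC hearts, but not those of PLCβ1a against PLCβ1b, as a gene count does not separate the splice variants. It lay between 0.806 and 1.14 FPKM in blank hearts (median 0.986), between 3.18 and 5.28 in PLCβ1a hearts (median 3.69) and between 4.16 and 13.2 in PLCβ1b hearts (median 7.82). Every heart of either PLC group was above every blank heart, the PLC groups overlapped (PLCβ1b heart 8 at 4.16 and PLCβ1a heart 21 at 5.28), and Plcb1 was called in all 3 comparisons.

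None of the 6 natriuretic genes was called in any of the 3 comparisons. The test was edgeR's quasi-likelihood test on counts, called at a false discovery rate (FDR, the Benjamini-Hochberg adjusted p over all 12281 genes) below 0.1. It called 0.0977% of all genes in PLCβ1b against blank, 0.0814% in PLCβ1a against blank and 0.00814% in PLCβ1b against PLCβ1a, or 12, 10 and 1 genes, so that a count of 0 among 6 is what such shares would give. At an unadjusted p under 0.05 there was 1 member in PLCβ1b against blank (Corin, lower), beside 3.95% of all genes higher and 3.48% lower. There were 2 in PLCβ1a against blank (Nppb and Npr3, both lower), beside 4.52% higher and 4.29% lower. There was 1 in PLCβ1b against PLCβ1a (Npr3, higher), beside 2.25% higher and 2.31% lower. DESeq2 also called 0 of the 6 in each comparison, with 1 at an unadjusted p under 0.05 in each, namely Corin, Npr3 and Npr3. On FPKM, limma called none either, with 0, 1 and 1 at that p, Npr3 in both. Both comparisons with blank share the 6 blank hearts, and the third shares its hearts with both, so that the 3 are not independent of each other. The median log2 fold change of the 6 genes was -0.0367, -0.109 and 0.0575 in the order above, beside -0.000892, -0.00176 and 0.000884 over all genes tested.

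By FPKM over the 18 hearts the levels ran in the order Nppb, Nppa, Corin, Npr2, Npr3 and Npr1, at means of 70.3, 46.4, 27.4, 5.46, 2.37 and 2.33. Both hormone messages and that of the protease thus stood well above the receptors in ventricle. Nppb ranked 347th, Nppa 471st and Corin 790th of the 23396 genes by mean FPKM, whereas Npr2 ranked 3923rd, Npr3 7036th and Npr1 7131st. Nppb was above Nppa in 17 of 18 hearts, the exception being PLCβ1a heart 11, and Nppa was above Corin in all 18, although the ranges of both pairs overlapped. Nppb and Nppa were nearly equal in PLCβ1a heart 13 (52.0 against 51.7) and PLCβ1b heart 10 (56.5 against 56.3). By CPM, which is not scaled by gene length, Nppa was the higher in these hearts and in PLCβ1a heart 11. Corin was above Npr2, and Npr2 above Npr3, with no overlap between any hearts. Npr3 and Npr1 could not be ordered, as Npr3 was the higher of them in 9 of 18 hearts.

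**Figure D1:**
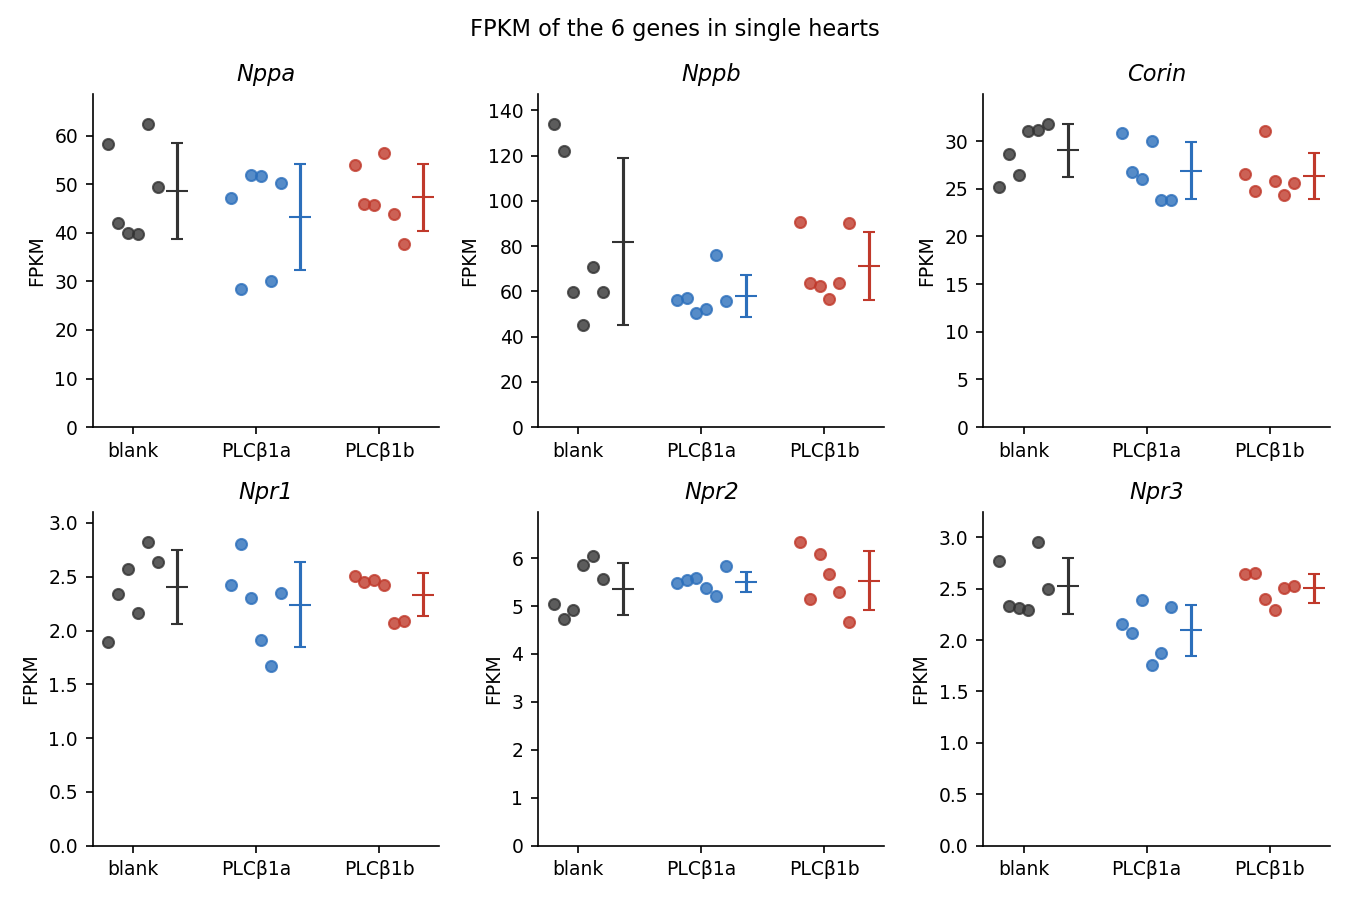
FPKM of each gene on the vertical axis (from 0) in single hearts of the blank (black), PLCβ1a (blue) and PLCβ1b (red) groups, each point 1 heart and each bar the mean ± SD of 6 hearts. Blank hearts 26 and 30 stand apart for Nppb at 134 and 122 FPKM, PLCβ1a hearts 9 and 14 are the lowest for Nppa at 28.5 and 30.1, and for each gene the 3 groups overlap.

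Nppa, the ANP gene, had a lowest, median and highest level of 39.7, 45.6 and 62.4 FPKM in blank hearts. The same 3 values were 28.5, 48.7 and 51.8 in PLCβ1a hearts and 37.6, 45.9 and 56.3 in PLCβ1b hearts. PLCβ1a hearts 9 and 14 were below every other heart, and the remaining 4 of that group lay between 47.2 and 51.8, so that the groups overlapped with a tail of 2 low hearts in one of them. The log2 fold change was -0.0185 in PLCβ1b against blank (95% confidence interval -0.284 to 0.247, FDR = 0.987), that is 0.987-fold, with an interval of 0.821 to 1.19. In PLCβ1a against blank it was -0.14 (-0.408 to 0.128, FDR = 0.802), and in PLCβ1b against PLCβ1a 0.121 (-0.145 to 0.388). All 3 intervals span 0, and as fold changes they reach from 0.754 to 1.31. Without PLCβ1a heart 9 the value was -0.0381 in PLCβ1a against blank and 0.0196 in PLCβ1b against PLCβ1a. The sign in PLCβ1b against blank turned when blank heart 26 (0.0491), blank heart 34 (0.0482) or PLCβ1b heart 17 (0.0321) was left out. The 5 atrial markers tested, given further on, were all lower in that comparison (median -0.33), and none was called.

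Nppb, the BNP gene, was the most variable of the 6. Its lowest, median and highest levels were 45.0, 65.2 and 134 FPKM in blank hearts, 50.6, 56.0 and 75.9 in PLCβ1a hearts and 56.5, 63.6 and 90.7 in PLCβ1b hearts. Blank hearts 26 and 30, at 134 and 122 FPKM, were above all other 16 hearts, whereas the other 4 blank hearts lay between 45.0 and 70.8. These 2 hearts set the blank mean of 81.9 ± 37.0 (SD, n = 6), against 58.0 ± 9.17 in PLCβ1a and 71.2 ± 15.2 in PLCβ1b hearts. Blank heart 26 held 13386745 fragments and blank heart 30 held 18180534, and Nppb had 1008 and 1201 counts in them. Whether depth has a part in these values was not tested. The fitted biological coefficient of variation of Nppb was 24.1%, and only 0.953% of genes varied at least as much, while that of Nppa was 15.4% (6.03% of genes) and the median over all genes was 6.62%.

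The log2 fold change of Nppb was -0.195 in PLCβ1b against blank (-0.608 to 0.219, FDR = 0.861). In PLCβ1a against blank it was -0.491 (-0.911 to -0.0709, unadjusted p = 0.0237, FDR = 0.48), that is 0.711-fold, and no PLCβ1a heart was below all blank hearts. In PLCβ1b against PLCβ1a it was 0.297 (-0.124 to 0.717). The difference between PLCβ1b and blank rested on either of the 2 high blank hearts, as it was 0.00512 without blank heart 26 and -0.0172 without blank heart 30. In PLCβ1a against blank the value was -0.291 without blank heart 26, -0.315 without blank heart 30 and -0.628 without blank heart 33, the lowest. The Nppb to Nppa ratio by FPKM ran from 1.13 to 2.92 for blank, 0.978 to 2.52 for PLCβ1a and 1.0 to 2.40 for PLCβ1b hearts, with medians of 1.35, 1.15 and 1.42. Ratios of 2 or more were seen in 5 hearts spread over the groups, namely blank 26 and 30, PLCβ1a 9 and 14 and PLCβ1b 17, which got there in different ways. Blank hearts 26 and 30 had high Nppb, PLCβ1a heart 9 had low Nppa, and PLCβ1a heart 14 and PLCβ1b heart 17 were within their groups both high for Nppb (75.9 and 90.2 FPKM) and low for Nppa (30.1 and 37.6 FPKM).

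Corin, the protease gene, had counts of 1382 to 3112 per heart, the deepest of the 6. Its lowest, median and highest levels were 25.2, 29.8 and 31.8 FPKM in blank, 23.8, 26.4 and 30.8 in PLCβ1a and 24.3, 25.7 and 31.0 in PLCβ1b hearts. The log2 fold change was -0.121 in PLCβ1b against blank (-0.233 to -0.00866, unadjusted p = 0.0358, FDR = 0.632) and -0.0777 in PLCβ1a against blank (-0.19 to 0.0345, FDR = 0.72). The interval of the former puts PLCβ1b hearts at 0.851 to 0.994 of the blank level. With any 1 heart left out, the fold change in PLCβ1b against blank stayed between -0.16 and -0.103. Its unadjusted p was no longer under 0.05 without blank heart 30, 33, 34 or 36, without PLCβ1b heart 4, 6, 16 or 17, and in limma on FPKM. By FPKM 2 of the 6 PLCβ1b hearts were below every blank heart (by CPM 3), while PLCβ1b heart 8, at 31.0 FPKM, was exceeded by only 3 hearts, all of them blank. In PLCβ1b against PLCβ1a it was -0.0432 (-0.156 to 0.0691).

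Npr1, the ANP and BNP receptor gene, had only 106 to 225 counts per heart. Its lowest, median and highest levels were 1.89, 2.45 and 2.82 FPKM in blank, 1.67, 2.33 and 2.80 in PLCβ1a and 2.07, 2.43 and 2.51 in PLCβ1b hearts. The groups overlapped throughout, with log2 fold changes of -0.055 (-0.229 to 0.119), -0.0439 (-0.218 to 0.131) and -0.0111 (-0.185 to 0.163) in PLCβ1b against blank, PLCβ1a against blank and PLCβ1b against PLCβ1a. The last of these turned positive in limma on FPKM, at 0.0695.

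Npr2, the C-type natriuretic peptide receptor gene, was the steadiest of the 6, with a biological coefficient of variation of 5.2%. Its lowest, median and highest levels were 4.72, 5.31 and 6.04 FPKM in blank, 5.21, 5.51 and 5.83 in PLCβ1a and 4.66, 5.48 and 6.33 in PLCβ1b hearts. By FPKM PLCβ1a hearts sat close together inside the range of the other groups. By CPM 2 of them were above every blank heart, and 4 blank hearts were below every PLCβ1a heart. The log2 fold changes were 0.0725 (-0.0416 to 0.187), 0.079 (-0.0352 to 0.193) and -0.00648 (-0.12 to 0.107) in the same order, and the last turned to 0.000519 in limma on log2(FPKM + 0.1).

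Npr3, the clearance receptor gene, was the member with the lowest FDR in both comparisons that involve PLCβ1a. Its lowest, median and highest levels were 2.29, 2.41 and 2.95 FPKM in blank, 1.76, 2.12 and 2.39 in PLCβ1a and 2.29, 2.52 and 2.65 in PLCβ1b hearts. By FPKM 4 of the 6 PLCβ1a hearts were below every blank heart, and 5 of the 6 PLCβ1b hearts were above every PLCβ1a heart (by CPM 4 and 4). The log2 fold change was -0.227 in PLCβ1a against blank (-0.374 to -0.0796, unadjusted p = 0.00391, FDR = 0.319), or 0.854-fold. In PLCβ1b against PLCβ1a it was 0.246 (0.10 to 0.393, unadjusted p = 0.00185, FDR = 0.959), or 1.19-fold. In PLCβ1b against blank it was 0.0195 (-0.125 to 0.164), and this small value turned negative in limma on log2(FPKM + 0.1), at -0.00716, and without blank heart 33, at -0.019. Neither of the larger differences passed the test over all genes. With any 1 heart left out, the value in PLCβ1a against blank stayed between -0.27 and -0.177 and that in PLCβ1b against PLCβ1a between 0.197 and 0.29.

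**Figure D2:**
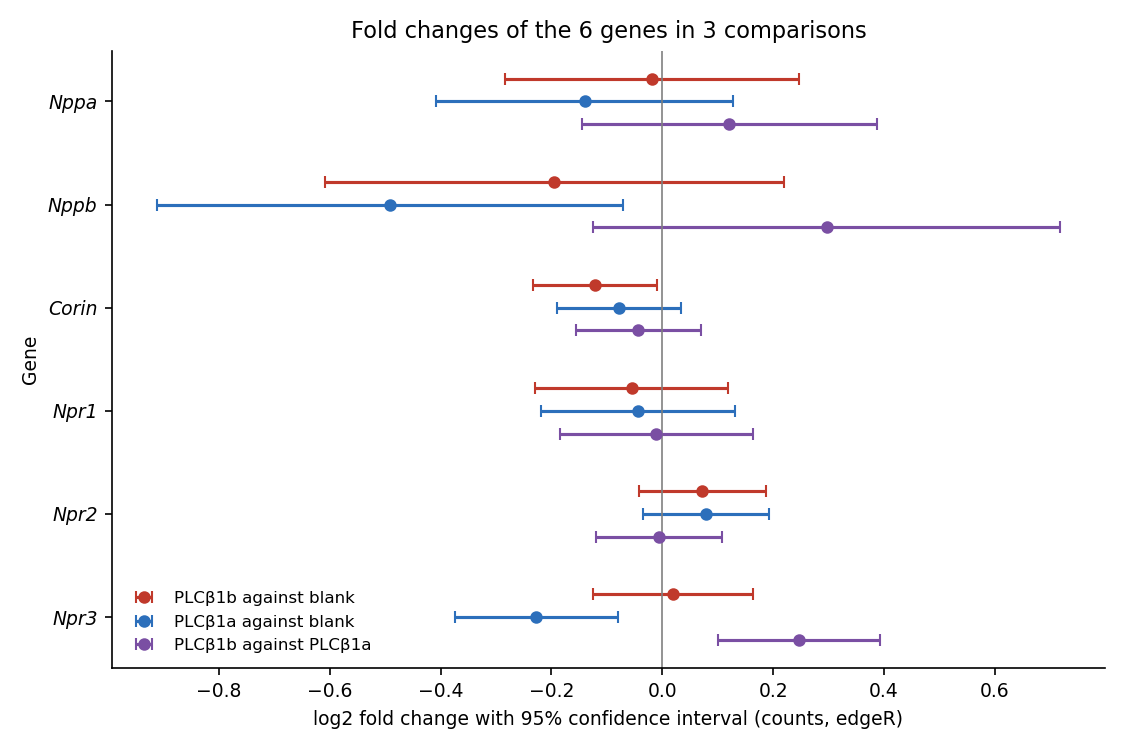
Log2 fold change on the horizontal axis with its 95% confidence interval (bars) for each of the 6 genes (1 line each), in PLCβ1b against blank (red), PLCβ1a against blank (blue) and PLCβ1b against PLCβ1a (purple), from edgeR on counts of 18 hearts. Intervals are widest for Nppb and narrowest for Corin and Npr2, and 4 of 18 leave out 0, namely Nppb and Npr3 in PLCβ1a against blank, Corin in PLCβ1b against blank and Npr3 in PLCβ1b against PLCβ1a.

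Across the 18 hearts the 6 genes did not vary as a unit. Of the 15 pairs, Pearson's r of log2 CPM ran from -0.385 (Nppb with Npr2) to 0.535 (Nppb with Npr3). The 15 pairs and 10 relations of Nppa or Nppb with stress or atrial genes made a family of 25, and p-values are from 2-sided permutation tests with 100000 resamples, adjusted over the 25. For Nppb with Npr3 (r 0.535, p = 0.0229, adjusted p = 0.19, rho 0.645, p = 0.00438, adjusted p = 0.11), r was 0.468 without blank hearts 26 and 30, the 2 farthest from the median of Nppb. With group means subtracted r of Nppb with Npr3 was 0.441 (adjusted p = 0.364). The strongest of the 15 was then Corin with Npr3, at -0.558 (adjusted p = 0.14), and -0.597, -0.501 and -0.806 within blank, PLCβ1a and PLCβ1b hearts. None of the 15 pairs passed the adjustment. Nppa and Nppb themselves, neighbours in the genome, had an r of 0.13 (p = 0.607, adjusted p = 0.733) and a rho of 0.0444 (p = 0.862), and r was 0.181 without PLCβ1a hearts 9 and 14. Within groups of 6 hearts their r was 0.539 for blank, -0.588 for PLCβ1a and -0.471 for PLCβ1b hearts, values that such small groups hold only loosely. With group means subtracted it was 0.0359.

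**Figure D3:**
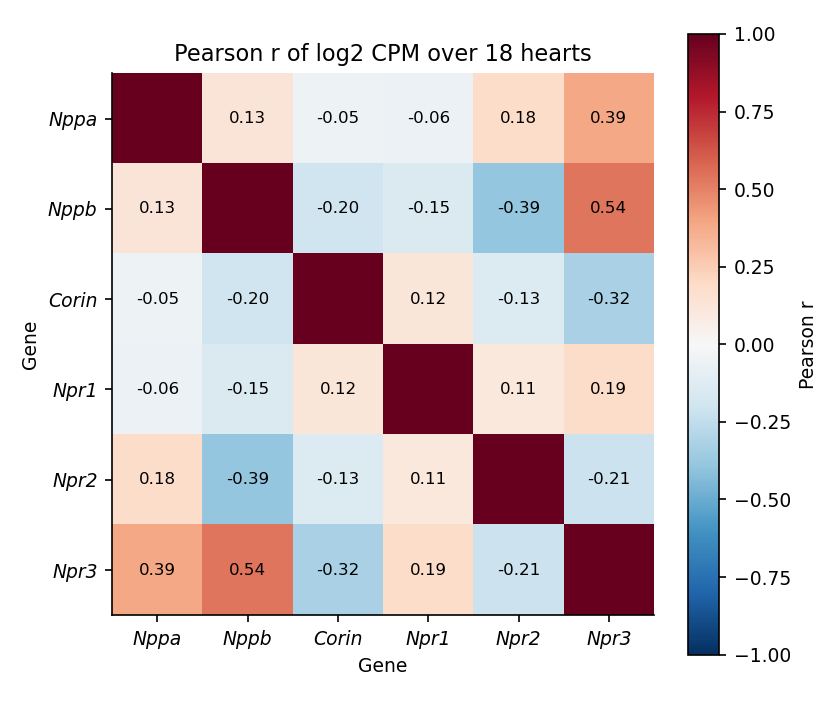
Pearson's r of log2 CPM over 18 hearts for each pair of the 6 genes (both axes), from blue (-1) to red (1), with r printed in each square. Most squares are pale, and the strongest are Nppb with Npr3 (0.535), Nppa with Npr3 (0.389) and Nppb with Npr2 (-0.385).

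Over all 18 hearts r of Nppa was higher with the atrial genes Myl7 and Sln than with Nppb or the stress genes, an order that did not hold without PLCβ1a hearts 9 and 14 and was not tested. It was not shared by all atrial markers, as r of Nppa was 0.667 with Myl4 but 0.324 with Dkk3 and -0.204 with Kcnj3. With Myl7, the atrial regulatory light chain, r was 0.688 (p = 0.00148, adjusted p = 0.037) and rho 0.542 (p = 0.0222, adjusted p = 0.278). This was the only 1 of the 25 relations to pass, and it rested on PLCβ1a hearts 9 and 14, without which r was 0.405 (permutation p = 0.12). With group means subtracted r was 0.764 (permutation p = 9e-05, adjusted p = 0.00225). With Sln (sarcolipin, an atrial regulator of the calcium pump) r was 0.561 (p = 0.0159, adjusted p = 0.19, rho 0.492, p = 0.0399) and 0.33 without these 2 hearts, and with group means subtracted it was 0.739 (adjusted p = 0.00325). Within single groups r was highest in PLCβ1a, the group of hearts 9 and 14, at 0.956 for Myl7 (blank 0.444, PLCβ1b 0.474) and 0.907 for Sln (blank 0.167, PLCβ1b 0.706). Nppa with Myh7, Acta1 and Ankrd1, genes of the hypertrophic and stretch response, gave r of -0.149, 0.378 and 0.226, with adjusted p of 0.733, 0.512 and 0.733, and without these 2 hearts -0.0638, 0.448 and 0.347.

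The 7 atrial markers were read heart by heart. Their summed level was 40.1 to 48.2 CPM in blank hearts, 31.1 to 55.7 in PLCβ1a hearts and 33.3 to 40.0 in PLCβ1b hearts. By this sum every PLCβ1b heart was below every blank heart, if narrowly (40.0 against 40.1). Of the tested markers only Sln, with 10 to 71 counts per heart, kept these groups apart by itself. Myl7, Myl4, Dkk3 and Kcnj3 each overlapped between them. The share of all genes that keep these groups apart was not computed. PLCβ1a heart 9 had the lowest sum of its group, 31.1, and PLCβ1a heart 14 the next, 32.5, the same hearts that were lowest for Nppa, while PLCβ1a heart 13 had the highest, 55.7. Of the 7, 5 passed the filter, Myl7 had the highest mean FPKM, Kcnj3 had the highest mean CPM (18.2), and Bmp10, which marks atrial tissue, had at most 4 counts in any heart. Sln had the lowest p of the list in each comparison, with log2 fold changes of -0.615 (SE 0.309, FDR = 0.683) in PLCβ1b against blank, 0.27 (SE 0.276, FDR = 0.823) in PLCβ1a against blank and -0.886 (SE 0.296, FDR = 0.959) in PLCβ1b against PLCβ1a. All 5 tested markers were lower in PLCβ1b against blank (highest -0.0735, median -0.33) and in PLCβ1b against PLCβ1a (highest -0.0583, median -0.371). In PLCβ1a against blank the median was 0.00572, and none was called in any comparison. Whether the amount of atrial tissue in a sample has a part in the Nppa values was not tested. For Nppb r was -0.143 with Myl7 and -0.229 with Sln. Without blank hearts 26 and 30 these were -0.433 (permutation p = 0.0936, adjusted p = 0.334) and -0.572 (permutation p = 0.0205, adjusted p = 0.256), and none passed.

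**Figure D4:**
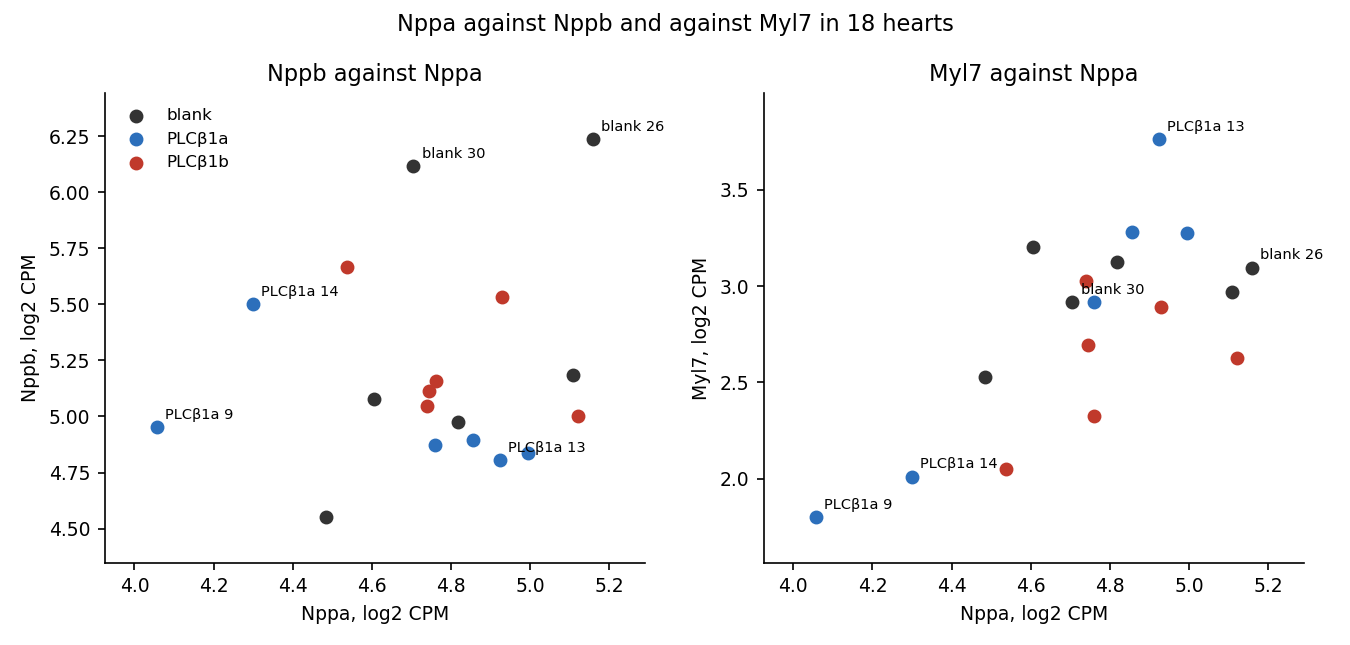
Log2 CPM of Nppb (left) and Myl7 (right) on the vertical axis against log2 CPM of Nppa on the horizontal axis, each point 1 of 18 hearts (blank black, PLCβ1a blue, PLCβ1b red), with 5 hearts named. Blank hearts 26 and 30 are high for Nppb without being alike for Nppa (r 0.13 over all hearts), whereas PLCβ1a hearts 9 and 14 are low for both Nppa and Myl7 (r 0.688, and 0.405 without them).

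Nppb was likewise set against the stress genes. For Ankrd1, a stretch-induced gene whose product is found in sarcomere and nucleus, r was 0.204 (permutation p = 0.419, adjusted p = 0.733). It was 0.17 for Acta1, skeletal actin, and 0.109 for Myh7, the slow myosin heavy chain. None passed. Without blank hearts 26 and 30 the value for Ankrd1 was 0.598 (permutation p = 0.0139, adjusted p = 0.256). These hearts, highest for Nppb, had 332 and 304 CPM of Ankrd1, where the highest heart had 394. On log2(FPKM + 0.1) r of Nppb with Myh7 turned to -0.247. Reads of Myh7 can be split with its paralog Myh6, and whether this has a part in the turn was not tested.

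For each gene the genes with the most similar pattern were found by Pearson's r of log2 CPM over the 18 hearts after group means were subtracted, as a description. For Nppa they were Zfp174 (0.782), Sipa1l1 (0.781), Myl7 (0.764) and Cacna2d2 (0.745), with Sln and Myl4 (0.729), the other atrial light chain, ranking 5th and 8th, while the atrial markers Dkk3 (0.325) and Kcnj3 (-0.208) ranked 1121st and 9786th. For Nppb they included Ppfia1 (0.877), Cltc (0.871), the clathrin heavy chain gene, and Ppfibp1 (0.868). Nppb had 125 genes at an r of at least 0.7, where the median gene had 21 and only 2.0% of genes had as many. Nppa had 14, Corin 41, Npr1 11, Npr2 26 and Npr3 17. For Corin they included Tmtc1 (0.825), Lipa (0.817), a lysosomal lipase gene, and Cers2 (0.803), a ceramide synthase gene. For Npr1 they were Dennd4b (0.823), Lphn1 (0.788), Csnk1e (0.782) and Chst14 (0.764). For Npr2 they were Ckmt2 (0.787), the mitochondrial creatine kinase gene of sarcomeric muscle, Acacb (0.772), Elk1 (0.764) and Stab1 (0.756). For Npr3 they were Zbtb18 (0.82), Cetn2 (0.762), Daxx (0.758) and Ccdc107 (0.757). No gene was named for more than 1 of the 6.

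Within 50 kb of Nppa or Nppb the genes read from the deposited models were Plod1, 2510039O18Rik and Clcn6, and none was called. Plod1, a collagen lysyl hydroxylase gene, had 11.7 FPKM and a log2 fold change of -0.133 (SE 0.0552, FDR = 0.595) in PLCβ1b against blank. Clcn6, a chloride transporter gene that ends on the side of Nppa, had 0.942 FPKM and 0.0354 (SE 0.147, FDR = 0.974), and 2510039O18Rik 4.52 FPKM and 0.00596 (SE 0.0758, FDR = 0.996). With group means subtracted their r with Nppa was 0.0131, 0.351 and -0.399, and with Nppb 0.136, -0.225 and -0.439, for Plod1, Clcn6 and 2510039O18Rik. None of the 6 natriuretic genes overlapped another gene in the deposited models. In GENCODE M21 the antisense gene Gm13054 (148001091 to 148004014, minus strand) overlaps Nppa. Counting was by strand, and Gm13054 was not among the deposited models.

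The rest of the pathway was read from 5 lists of 56 genes, of which 50 entered the fit and none was called in any comparison. At an unadjusted p under 0.05 there were 6 higher and 1 lower in PLCβ1b against blank, or 12% and 2% of the 50, beside 3.95% and 3.48% of all genes. In PLCβ1a against blank there were 8 higher and 0 lower, 16% and 0%, beside 4.52% and 4.29%. In PLCβ1b against PLCβ1a there was 1 each way, 2%, beside 2.25% and 2.31%. The lowest FDR in these 3 was 0.48 (Ctgf), 0.227 (Rgs2) and 1.0. DESeq2 likewise called none of the 50, with 5 higher and 1 lower, 7 higher and 0 lower, and 1 higher and 0 lower at that p. Over all genes its shares were 2.96% higher and 2.56% lower, 3.47% and 3.46%, and 1.6% and 1.4%. On log2(FPKM + 0.1) limma called none of 48, with 4 and 0, 6 and 1, and 1 and 0, where its shares over all genes leaned to lower values against blank, at 1.96% higher and 4.52% lower, 1.83% and 5.15%, and 1.81% and 1.53%. The median log2 fold change of the 50 was 0.0817, 0.0576 and -0.00456.

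Of the other ligands, Nppc, which encodes C-type natriuretic peptide, and Ostn, a ligand of the clearance receptor, had at most 2 and 3 counts in any heart and were not tested. Of 5 processing and degradation genes, none was past an unadjusted p of 0.05 in PLCβ1b against blank and 1 was higher in PLCβ1a against blank. Ide, the insulin-degrading enzyme gene that also cuts natriuretic peptides, had the highest level (18.5 ± 4.16 FPKM for blank, 18.8 ± 3.31 for PLCβ1a and 20.9 ± 0.967 for PLCβ1b hearts, SD, n = 6). Dpp4, a dipeptidyl peptidase gene, had the lowest p in both comparisons with blank, with log2 fold changes of 0.236 (SE 0.135, FDR = 0.734) in PLCβ1b and 0.348 (SE 0.133, FDR = 0.422) in PLCβ1a hearts. Furin, whose protease cuts pro-BNP, had -0.0334 (SE 0.0571) and 0.0407 (SE 0.057), and Mme, which encodes neprilysin, the main degrading enzyme, had -0.0981 (SE 0.0948) and -0.136 (SE 0.0953).

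Of 17 cGMP signalling genes 15 were tested, with 2 higher and 0 lower in PLCβ1b against blank and 3 higher and 0 lower in PLCβ1a against blank at an unadjusted p under 0.05. Rgs2, a regulator of G protein signalling that cGMP-dependent kinase acts on and that restrains Gq, the activator of PLCβ, had the lowest p in both. It stood at 5.68 ± 1.61 FPKM for blank, 7.86 ± 1.28 for PLCβ1a and 7.24 ± 1.57 for PLCβ1b hearts (SD, n = 6). Its log2 fold change was 0.349 (SE 0.133, unadjusted p = 0.0142, FDR = 0.542) in PLCβ1b and 0.482 (SE 0.132, unadjusted p = 0.00115, FDR = 0.227) in PLCβ1a hearts against blank, and edgeR with no filter on low counts called it in the latter. Pde3a, a cGMP-inhibited phosphodiesterase gene, had the highest level (8.18 ± 0.154 FPKM in blank hearts) and 0.0972 (SE 0.0634, FDR = 0.765) and 0.174 (SE 0.0632, FDR = 0.392). Pde3b had the lowest p in PLCβ1b against PLCβ1a, -0.293 (SE 0.139, FDR = 1.0). Prkg1, the cGMP-dependent kinase gene, had 0.0845 (SE 0.0586) and 0.0996 (SE 0.0586).

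All 15 transcription regulators of Nppa and Nppb were tested. At an unadjusted p under 0.05, 2 were higher in PLCβ1b and 1 was higher in PLCβ1a hearts against blank, with none lower. Mef2a had the highest level (19.9 ± 0.887 FPKM in blank hearts) and log2 fold changes of -0.058 (SE 0.0537) and 0.0357 (SE 0.0536). Yap1, a stretch-responsive co-activator gene, had the lowest p in PLCβ1b hearts, 0.0929 (SE 0.0416, FDR = 0.632), and Mef2d in PLCβ1a hearts, 0.156 (SE 0.0531, FDR = 0.353). Nkx2-5 had the lowest p in PLCβ1b against PLCβ1a, 0.165 (SE 0.0781, FDR = 1.0). Gata4, whose product binds GATA words such as those printed above, had 0.0811 (SE 0.0591) and 0.0735 (SE 0.0592).

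Of 17 wall stress response genes 15 were tested, with 2 higher and 1 lower in PLCβ1b against blank and 3 higher and 0 lower in PLCβ1a against blank at an unadjusted p under 0.05. Ctgf, a matricellular gene, had the lowest p in both, with log2 fold changes of 0.237 (SE 0.0814, FDR = 0.48) and 0.212 (SE 0.0815, FDR = 0.424). Ankrd1 stood at 232 ± 35.0 FPKM for blank, 243 ± 20.2 for PLCβ1a and 262 ± 24.4 for PLCβ1b hearts, with 0.198 (SE 0.0717, FDR = 0.522) in PLCβ1b and 0.0966 (SE 0.0718, FDR = 0.741) in PLCβ1a hearts against blank. In PLCβ1b against blank the fold change of Ankrd1 was thus positive where that of Nppb was negative, and neither passed. Csrp3, a Z-disc protein gene, had the highest level, 473 ± 28.7 FPKM in blank hearts, and -0.00665 (SE 0.0368) and -0.0237 (SE 0.0368). Il1rl1, with 8 to 32 counts per heart, had the lowest p in PLCβ1b against PLCβ1a, 0.308 (SE 0.209, FDR = 1.0). Gdf15 and Timp1 had at most 9 and 17 counts and were not tested.

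**Figure D5:**
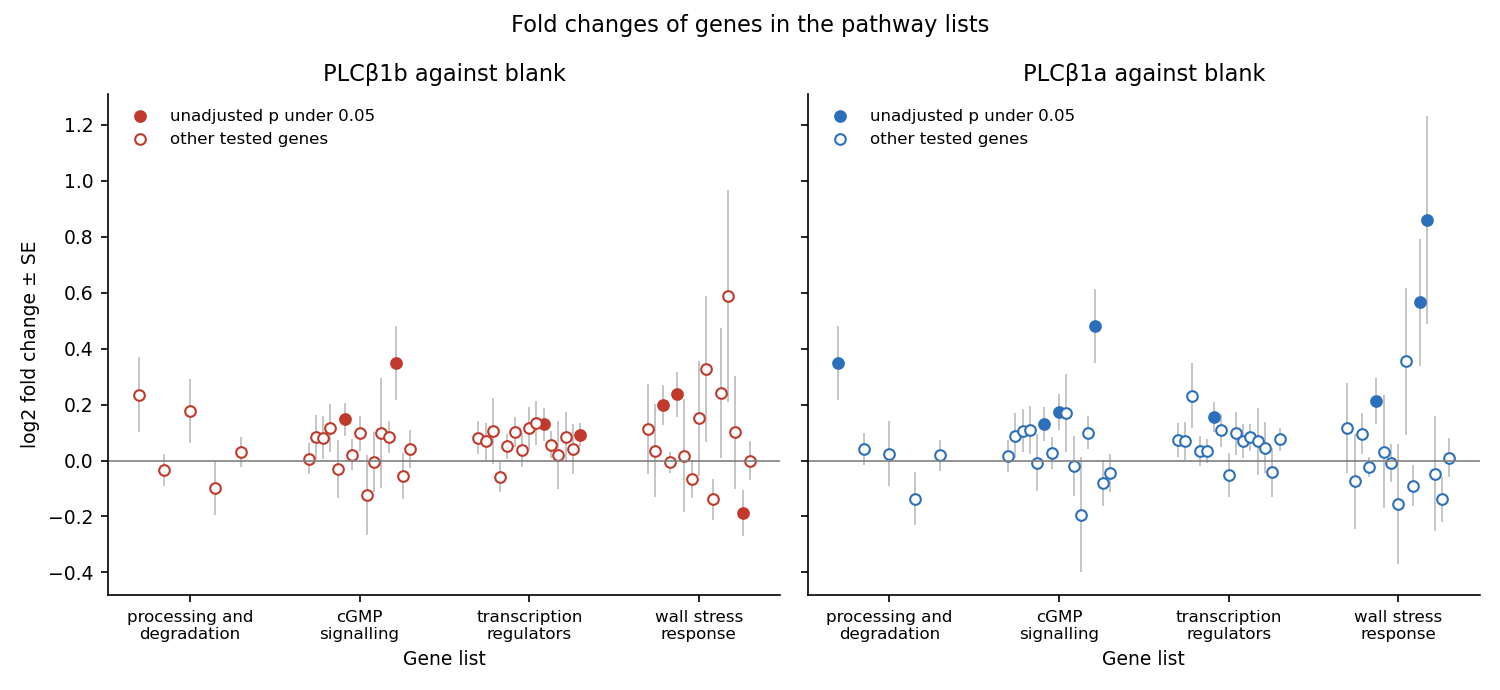
Log2 fold change ± SE on the vertical axis of the tested genes of 4 pathway lists (horizontal axis, each point 1 gene) in PLCβ1b against blank (left, red) and PLCβ1a against blank (right, blue), with filled points at an unadjusted p under 0.05. Filled points number 7 on the left, 1 of them below 0, and 8 on the right, none below 0, and no gene passed an FDR of 0.1.

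Markers of the cell types in ventricle were read in 11 lists of 58 genes, 49 of them tested and none called. At an unadjusted p under 0.05 there were 4 higher and 1 lower of the 49 in PLCβ1b against blank, beside 3.95% and 3.48% of all genes. There were 5 higher and 3 lower in PLCβ1a against blank, beside 4.52% and 4.29%, and 3 higher and 4 lower in PLCβ1b against PLCβ1a, beside 2.25% and 2.31%. DESeq2 gave 4 and 2, 4 and 3, and 2 and 4 of the 49, and limma on log2(FPKM + 0.1) gave 4 and 1, 4 and 2, and 1 and 3 of 48, beside the shares of all genes given for these tools above. Summed levels of 7 endothelial markers were 308 to 362 CPM for blank, 319 to 349 for PLCβ1a and 316 to 361 for PLCβ1b hearts. Cdh5, the endothelial cadherin gene, had the lowest p of them against blank, 0.144 (SE 0.0511, FDR = 0.488) and 0.112 (SE 0.0512, FDR = 0.53), and Tek, an angiopoietin receptor gene, in PLCβ1b against PLCβ1a, 0.0438 (SE 0.0544). Endocardial markers summed to 13.7 to 16.7, 13.1 to 15.7 and 14.4 to 16.5 CPM in the same order. Nrg1, which encodes neuregulin, had the lowest p of them in PLCβ1b against blank, 0.416 (SE 0.349, FDR = 0.828). Cytl1, the most abundant of them, had the lowest p in both comparisons with PLCβ1a, -0.313 (SE 0.129, FDR = 0.467) against blank and 0.27 (SE 0.128, FDR = 1.0) for PLCβ1b against PLCβ1a. The list did not move as a whole, as in PLCβ1a against blank Nfatc1 had 0.0201 (SE 0.0797), Plvap -0.0903 (SE 0.16) and Nrg1 0.454 (SE 0.348). Over the 18 hearts r of Cytl1 with Npr3 was 0.498, and 0.197 with group means subtracted.

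Ventricular myocyte markers summed to 18500 to 20400, 18500 to 19900 and 18300 to 19700 CPM in blank, PLCβ1a and PLCβ1b hearts. Actc1, cardiac actin, had the lowest p of them against blank, at -0.104 (SE 0.0486, FDR = 0.651) in PLCβ1b and -0.118 (SE 0.0486, FDR = 0.473) in PLCβ1a hearts. The list did not move with it, as its medians were -0.0264 and 0.00525, and Tnnt2 had 0.0339 and 0.0659. Ryr2, the calcium release channel gene, had -0.0761 (SE 0.0468) in PLCβ1b against PLCβ1a. Fibroblast markers summed to 310 to 339, 303 to 356 and 321 to 352 CPM, and Lum, a small proteoglycan gene, had 0.227 (SE 0.0672, FDR = 0.354) and 0.227 (SE 0.0673, FDR = 0.292). Dcn, decorin, was the most abundant of them (135 ± 5.53 FPKM in blank hearts), and Col1a1, a collagen gene, had 0.114 (SE 0.0832) in PLCβ1b against PLCβ1a. Mural cell markers summed to 240 to 263, 222 to 257 and 245 to 265 CPM, with Pdgfrb at 0.166 (SE 0.0533, FDR = 0.407) and 0.0423 (SE 0.0537), and Rgs5, the most abundant of them (79.1 ± 3.80 FPKM in blank hearts), at -0.0351 (SE 0.0472) and -0.0789 (SE 0.0473). Conduction system markers summed to 18.9 to 25.8, 19.9 to 25.6 and 21.4 to 25 CPM. Their Irx3, a transcription factor gene, came nearest to a call of all list genes, with log2 fold changes of 0.45 (SE 0.108, FDR = 0.192) in PLCβ1b and 0.49 (SE 0.107, FDR = 0.106) in PLCβ1a hearts, and DESeq2 and edgeR with no filter on low counts called it in both.

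Leukocyte markers summed to 25.8 to 30.8, 25.9 to 32.4 and 25.3 to 34.4 CPM, with Csf1r, a macrophage receptor gene, at 6.10 ± 0.964 FPKM in blank hearts. Cd68, a macrophage gene, had 0.19 (SE 0.137) and 0.272 (SE 0.136) against blank, and Ptprc, the pan-leukocyte CD45 gene, had -0.097 (SE 0.113) in PLCβ1b against PLCβ1a. Epicardial markers summed to 6.54 to 8.29, 6.60 to 8.66 and 5.91 to 8.92 CPM, with Upk3b at -0.306 (SE 0.133, FDR = 1.0) in PLCβ1b against PLCβ1a. Adipocyte markers were near 0, with sums of 0.344 to 1.4, 0.817 to 4.11 and 0.272 to 1.55 CPM, and only Cfd, the adipsin gene, was tested, with 0.972 (SE 0.456, FDR = 0.545) in PLCβ1a against blank and -1.19 (SE 0.466, FDR = 1.0) in PLCβ1b against PLCβ1a. Of 3 erythrocyte markers only Alas2, the red cell heme synthesis gene, was counted, with 0.219 (SE 0.167, FDR = 0.807) in PLCβ1b and 0.627 (SE 0.162, FDR = 0.186) in PLCβ1a hearts, as the globin genes Hbb-b1 and Hba-a1 were listed at 0 counts in every heart although their FPKM was 67.3 ± 25.2 and 157 ± 32.2 in blank, 105 ± 28.7 and 201 ± 62.6 in PLCβ1a and 75 ± 16.9 and 167 ± 28.3 in PLCβ1b hearts. With no filter on low counts edgeR called Alas2 in PLCβ1a against blank. The erythrocyte sums were thus those of Alas2, 5.35 to 10.6, 9.13 to 15.6 and 6.20 to 13.3 CPM.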

How the data were processed

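RNA from 18 mouse hearts (6 per vector) was sequenced by the authors as strand-specific, ribosomal RNA-depleted paired-end libraries and aligned to mm10. The submitters' processing notes list TopHat2 2.0.10 and Cufflinks 2.1. The deposited counts are whole fragments per gene from HTSeq (union mode, by strand). The deposited FPKM values are normalized for length and depth, and the program that made them is not given in the sources used here. In them mt-Rnr1 is 0 in 15 hearts and 94639.3, 96893.1 and 94666.6 in blank hearts 26 and 32 and PLCβ1a heart 14, although its counts are high in all 18. Its part in the FPKM of other genes was not tested, and the tests and CPM rest on counts. Deposited gene models gave positions, and GENCODE M21 the antisense gene.

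Counts were tested in R 4.3.3 with edgeR 4.0.16 (TMM scaling, default low-count filter, quasi-likelihood F test, 3 groups in 1 model), with Benjamini-Hochberg adjustment over 12281 genes, and groups followed the labels. Confidence intervals used the fold change, its standard error and the total degrees of freedom. Log2 CPM used a prior count of 2. DESeq2 1.42.0, other scalings and filters, limma 3.58.1 on log2(FPKM + 0.1) or log2(FPKM + 1), and leaving out each heart were tried. Correlations were computed in Python 3.11.15 with numpy 2.4.6, pandas 2.3.3 and scipy 1.17.1, and figures were drawn with matplotlib 3.10.9. The test scripts were tested on simulated counts. The 37 mitochondrial genes were named through the deposited models.

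Genes named are the 6 members; genes of the lists that were called; in each list the gene with the highest mean FPKM and that with the lowest unadjusted p in each comparison; for each member the 4 genes with the highest r; genes within 50 kb of Nppa or Nppb; and Plcb1. Furin, Mme, Prkg1, Gata4, Ankrd1, Acta1, Myh7, Myl4, Nfatc1, Plvap, Dkk3, Kcnj3 and genes too low to test are named for their role, chosen after values were seen. Some genes that this rule takes are not reported here. Members and lists were chosen with earlier results of these data known. Promoters are from RefSeq (GRCm38.p6).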

Additional observations from a re-analysis of the deposited data

Results flagged for a closer look

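Over 24 groups of 6 hearts (FPKM of each of the 6 genes, total counts and the summed atrial markers, in each vector group), 2 held a heart far from the other 5, where chance gives about 1 in 20. PLCβ1a heart 14 had 75.9 FPKM of Nppb, and the next PLCβ1a heart had 57.2. That heart was also the shallowest library, with 13246339 fragments and 565 counts of Nppb, and the second lowest for Nppa at 30.1 FPKM. PLCβ1b heart 8 had 31.0 FPKM of Corin, and the next PLCβ1b heart had 26.5. It was also the PLCβ1b heart with the least Plcb1, 4.16 FPKM. The pair of blank hearts that stood apart for Nppb, at 134 and 122 FPKM, lie close to each other and so were not picked out by a rule that looks for 1 heart. Whether depth or any other property of these hearts has a part in these values was not tested.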

How the results depend on the processing

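None of the 6 genes was called in any of the 3 comparisons under any of 27 alternatives (9 of processing and 18 that leave out 1 heart), with a lowest FDR of 0.234. Of the 18 fold changes, 13 kept their sign throughout, and of 486 values 18 had the other sign, the largest of them 0.0695. The alternative with an FDR below 0.05 is counted among these but refits nothing, so that it could neither turn a sign nor add a call. In limma on log2(FPKM + 0.1), Npr3 in PLCβ1b against blank was -0.00716, and in PLCβ1b against PLCβ1a Npr1 was 0.0695 and Npr2 0.000519. On log2(FPKM + 1) the same were -0.0062, 0.0475 and 0.00124. With 1 heart left out, PLCβ1b against blank ran from -0.0838 to 0.0491 for Nppa, from -0.332 to 0.00512 for Nppb (the upper end without blank heart 26) and from -0.019 to 0.0564 for Npr3, and PLCβ1b against PLCβ1a ran from -0.0521 to 0.054 for Npr1 and from -0.0321 to 0.0282 for Npr2. The cause of these turns was not tested. Genes called among all tested, 12, 10 and 1, moved more, to 24 and 23 with DESeq2 in the comparisons with blank, to 26, 32 and 2 with no filter on low counts, to 6, 6 and 2 with only the 2 groups compared, to 6 and 6 in limma on log2(FPKM + 0.1) and 6 and 5 on log2(FPKM + 1), and to 6 and 2 at an FDR below 0.05. With mitochondrial genes left out, PLCβ1b against PLCβ1a gave 2. A robust quasi-likelihood fit, chosen after the data were seen, gave 17 in PLCβ1a against blank and 0 in PLCβ1b against PLCβ1a. With 1 heart left out these counts ran from 4 to 17, from 2 to 20 and from 1 to 2. Of the relations, Nppa with Sln passed with group means subtracted (r 0.739), Nppa with Myl7 did not pass without the 2 hearts farthest from the median (r 0.405), and Nppb with Myh7 was -0.247 on log2(FPKM + 0.1). In both comparisons with blank the standard error was largest for Nppb (0.201 and 0.205) and next for Nppa (0.129 and 0.13).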
